A study of Mus musculus with 18 samples.

Results

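The genes described here are 10 components of the circadian clock, measured by RNA-Seq in the livers of 18 mice: Arntl, Clock, Npas2, Per1, Per2, Per3, Cry1, Cry2, Dbp and Tef. They were chosen by gene symbol from the raw count table, in which they fill 10 of 55487 rows. All mice were male C57BL/6J animals bought at 7 weeks of age, kept in 14 h of light and 10 h of dark, and given an AAV8 vector after 1 week of acclimatization. The vector carried its gene behind the TBG promoter, which is active in hepatocytes, and the diets began 1 week after the injection and lasted 16 weeks. The 6 CON-GFP mice received the GFP vector and a purified control diet. The 6 FPC-GFP mice received the same vector and the FPC diet, which is rich in fat, fructose, palmitate and cholesterol and was given with fructose-glucose water. The 6 FPC-LIPA mice ate the FPC diet and carried human LIPA, the gene for lysosomal acid lipase (LAL), in place of GFP, so that every group carried a vector and no group was left uninjected. Livers were collected after a 4 h fast, and the time of day of collection is not given in the sources used here. Each library came from a different mouse and is named by its group and mouse number.

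The clock is a feedback loop of transcription that runs in nearly every cell, and in the liver it times much of lipid, bile acid and glucose metabolism. BMAL1, the product of Arntl, pairs with CLOCK or its relative NPAS2 and binds E-boxes in the Per, Cry, Dbp, Tef and REV-ERB genes. PER and CRY proteins then enter the nucleus and repress that pair, while REV-ERB and ROR receptors compete at response elements (ROREs) in Arntl and Npas2. DBP, TEF and HLF activate genes through D-boxes, at which NFIL3 represses. The RNAs of the loop peak at different times of day, with Arntl and Npas2 nearly opposite to Dbp and Per3. A single sample per animal depends on both the level and the phase of the loop and cannot separate them.

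These elements were searched in RefSeq promoter windows of the GRCm38.p6 build, which run from 250 bases before to 50 bases after a gene's start. Windows were at hand for 9 of the 10 genes, with 14 windows in all, and 5 of the genes held at least 1 of the 3 motifs searched on both strands. The E-box CACGTG was found in 7.15% of all 32851 windows, the D-box (TTATGTAA or TTACGTAA) in 1.06% and the RORE in 0.384%. Per1, Cry1 and Tef held the E-box, Per3 held the D-box at 2 places, and Arntl held a RORE 26 bases after its start. The stretches below are shown because they hold the elements through which the loop is known to act on its own members. A match describes the letters only and does not show that a factor binds there. Capitals mark the motif, and each line gives the strand of the gene from 5′ to 3′, for Per1 at chr11:69098699-69098948 (+), Cry1 at chr10:85185055-85185304 (-), Tef at chr15:81802423-81802672 (+), Per3 at chr4:151044666-151044915 (-) and Arntl at chr7:113207528-113207556 (+).
Per1 with an E-box: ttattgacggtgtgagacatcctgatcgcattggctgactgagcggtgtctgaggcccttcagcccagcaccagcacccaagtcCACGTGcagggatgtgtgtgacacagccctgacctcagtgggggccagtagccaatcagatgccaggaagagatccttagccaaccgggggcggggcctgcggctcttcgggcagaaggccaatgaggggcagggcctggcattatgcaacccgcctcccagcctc
Cry1 with an E-box: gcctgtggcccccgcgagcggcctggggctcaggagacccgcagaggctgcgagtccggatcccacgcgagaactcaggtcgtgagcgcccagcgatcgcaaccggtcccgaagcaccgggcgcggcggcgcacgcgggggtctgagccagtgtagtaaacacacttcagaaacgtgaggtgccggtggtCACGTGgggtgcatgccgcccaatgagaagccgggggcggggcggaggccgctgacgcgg
Tef with an E-box: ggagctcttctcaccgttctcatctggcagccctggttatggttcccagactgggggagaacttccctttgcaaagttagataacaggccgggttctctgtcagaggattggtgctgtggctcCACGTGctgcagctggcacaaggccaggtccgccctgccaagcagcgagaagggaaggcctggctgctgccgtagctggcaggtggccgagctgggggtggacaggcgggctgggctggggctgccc
Per3 with 2 D-boxes: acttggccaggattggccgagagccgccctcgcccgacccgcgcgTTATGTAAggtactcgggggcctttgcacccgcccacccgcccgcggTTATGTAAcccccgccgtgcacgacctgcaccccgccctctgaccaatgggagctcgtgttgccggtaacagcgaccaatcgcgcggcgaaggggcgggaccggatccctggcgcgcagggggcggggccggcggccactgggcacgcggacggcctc
Arntl with a RORE: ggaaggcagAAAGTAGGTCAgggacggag

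The libraries held 16632146 to 37739301 counts assigned to genes. The mouse Lipa row ranged from 208 to 309 CPM (counts scaled to a common library size) in CON-GFP livers. It ranged from 235 to 406 CPM in FPC-GFP livers and from 243 to 391 CPM in FPC-LIPA livers. Since the transgene is human, this row checks no label. The hepatocyte marker Alb was high in every group, at 58675 ± 9673 CPM in CON-GFP, 52691 ± 8263 in FPC-GFP and 43087 ± 9007 in FPC-LIPA (SD, n = 6). Within FPC-LIPA, mice 36, 37 and 39 stood apart: 83 ribosomal protein genes took 6.48%, 8.09% and 8.15% of their counts, against 1.44% to 2.95% in the other 15 libraries. The levels of several lists of nonparenchymal markers differed between the groups. The summed level of 6 leukocyte markers, of which Lyz2 was the most abundant, ran from 97.0 to 195 CPM in CON-GFP, from 256 to 551 CPM in FPC-GFP and from 590 to 785 CPM in FPC-LIPA, and that of 4 Kupffer cell markers from 95.6 to 204, 277 to 486 and 358 to 734 CPM. For 5 stellate cell markers the ranges were 136 to 239, 184 to 263 and 275 to 943 CPM, for 4 endothelial markers 81.0 to 114, 113 to 138 and 87.2 to 174 CPM, for 4 cholangiocyte markers 3.11 to 12.4, 3.45 to 16.3 and 3.67 to 7.63 CPM, and for 5 hepatocyte markers 65366 to 95442, 57930 to 83366 and 48751 to 73679 CPM. With the diet, 5 of 6 leukocyte, 4 of 4 Kupffer, 2 of 5 stellate and 2 of 4 endothelial markers rose in edgeR, in FPC-LIPA against FPC-GFP 2, 2, 3 and 0, and in FPC-LIPA against CON-GFP 6, 4, 3 and 2, where 1 hepatocyte marker also fell. Of all genes, 12.9%, 14.4% and 14.7% passed as higher in these comparisons. Not every marker rose in FPC-LIPA against FPC-GFP: 2 of 6 leukocyte, 0 of 4 Kupffer, 2 of 5 stellate and 2 of 4 endothelial markers had a difference below 0. Of these, 0 passed as lower. No cholangiocyte marker passed in edgeR, and no marker of any list was at 0 in a whole group. Their part in the results on the clock genes was not tested, and in whole liver a change in the number of cells of a type cannot be told apart from a change in RNA per cell.

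Among the activators, Arntl covered a wider range in each FPC-fed group than in the control group. Arntl (chr7:113207465-113314126) had a lowest, median and highest level of 8.18, 13.7 and 23.2 CPM among control mice, 1.55, 5.83 and 20.2 CPM in FPC-GFP, and 1.02, 7.59 and 20.9 CPM in FPC-LIPA. Levels are CPM scaled by the trimmed mean of M-values (TMM). No library lay between 3.19 and 8.18 CPM of Arntl: 3 FPC-GFP and 3 FPC-LIPA livers were below this gap, and the 6 CON-GFP livers and the other 6 FPC-fed livers were above it. The FPC-fed livers above the gap reached the levels of the control livers. Clock (chr5:76209868-76304792), the partner of BMAL1, ran from 28.7 through 44.5 to 64.6 CPM in CON-GFP, from 18.2 through 29.9 to 43.9 CPM in FPC-GFP and from 16.1 through 28.4 to 48.3 CPM in FPC-LIPA. Its ratio of highest to lowest level was 2.25, 2.41 and 3.01 in these groups, smaller than the 2.84, 13.0 and 20.6 of Arntl. Clock in 3 livers of each FPC-fed group was below all CON-GFP livers. Npas2 (chr1:39193731-39363236), which can stand in for CLOCK, was the least abundant: 0, 0.708 and 6.88 CPM in CON-GFP, 0.137, 1.23 and 9.18 in FPC-GFP, and 0, 1.34 and 7.08 CPM in FPC-LIPA. It had no count in CON-GFP 2, CON-GFP 8 and FPC-LIPA 39, where 0 counts allow up to 3 counts, or 0.195, 0.0994 and 0.130 CPM. The Npas2 groups overlapped over nearly their whole range.

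The Per and Cry genes, the repressors of the loop, differed in how far their levels ranged. Per1 (chr11:69095217-69109960) had a lowest, median and highest level of 16.9, 36.5 and 59.9 CPM in CON-GFP, 9.77, 24.6 and 32.8 in FPC-GFP, and 9.76, 19.1 and 58.3 CPM in FPC-LIPA. Per2 (chr1:91415982-91459324) ran from 9.53 through 29.7 to 40.7 CPM, from 9.70 through 27.7 to 45.4 CPM, and from 8.17 through 17.5 to 42.9 CPM in the same groups. Per3 (chr4:151003652-151044665) ran from 3.69 through 20.4 to 32.7 CPM, from 1.49 through 22.5 to 37.0 CPM, and from 2.85 through 12.6 to 30.3 CPM. The groups of each Per gene overlapped, although the highest Per1 liver of FPC-GFP was below the control median. Cry1 (chr10:85131700-85185064) ran from 12.7 through 24.4 to 44.7 CPM in CON-GFP, from 5.68 through 9.14 to 29.9 CPM in FPC-GFP, and from 2.52 through 13.6 to 19.3 CPM in FPC-LIPA. In FPC-GFP, 4 of 6 livers had less Cry1 than any CON-GFP liver, and FPC-GFP 11 and 12 had levels inside the control range. Cry2 (chr2:92403646-92434043) had the smallest pooled SD within groups of the 10 genes, at 24.5, 33.2 and 37.6 CPM in CON-GFP, 17.4, 31.3 and 33.0 in FPC-GFP, and 6.82, 16.0 and 24.9 CPM in FPC-LIPA. The FPC-LIPA livers were low in Cry2: 5 of 6 were below every CON-GFP liver and 3 of 6 were below every FPC-GFP liver.

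Dbp and Tef, the D-box activators that serve as outputs of the loop, led the members in level per length in both FPC-fed groups. Dbp (chr7:45705088-45710203) ran from 2.43 through 16.1 to 26.04 CPM in CON-GFP, from 1.77 through 63.1 to 101 CPM in FPC-GFP, and from 3.46 through 23.1 to 71.3 CPM in FPC-LIPA. Of the 6 FPC-GFP livers, 4 were above all control livers and 1 was below them, and of the 6 FPC-LIPA livers, 3 were above all control livers. Tef (chr15:81802421-81826863) ran from 82.0 through 118 to 159 CPM, from 30.7 through 120 to 220 CPM, and from 23.9 through 62.1 to 115 CPM in the same groups. In FPC-LIPA, 4 of 6 livers had less Tef than any CON-GFP liver. Per kilobase of exon, Tef led in CON-GFP at a level of 15.0 ± 4.05 CPM per kb (SD, n = 6), followed by Cry1, Per1, Cry2, Dbp, Per2, Clock, Per3, Arntl and Npas2, the last at 0.433 ± 0.591. Neighbours in that order differed by more than the larger SD only for Tef and Cry1, for Clock and Per3, and for Arntl and Npas2. In FPC-GFP the order began with Dbp at a level of 18.6 ± 15.4 and Tef at 15.7 ± 9.14 CPM per kb, where only Tef and the next gene, Per2, differed by more than the larger SD. In FPC-LIPA, Dbp at 10.3 ± 9.90 and Tef at 8.74 ± 4.62 CPM per kb again led, and no neighbours differed by more than the larger SD.

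**Figure D1:**
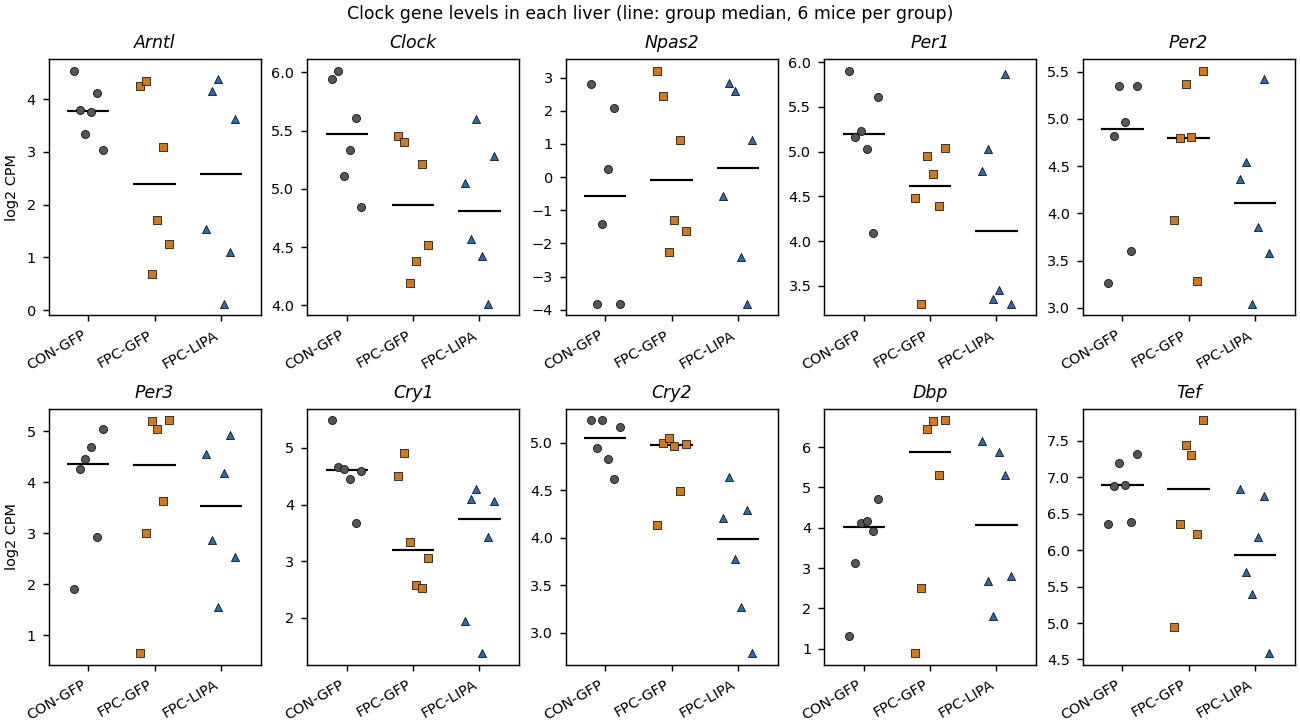
Level of each clock gene in each of the 18 livers as log2 CPM (prior count of 2, TMM scaling), by group, with 1 point per mouse and a line at the group median (n = 6). Arntl in the FPC-fed groups runs from levels far below the control livers up to their range, Dbp runs from levels near the lowest control liver to levels above the highest, and Cry2 is lower in most FPC-LIPA livers.

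Most of these genes varied more between mice of a group than the typical liver gene did. The pooled SD of log2 CPM within groups was 1.92 for Dbp, larger than that of 99.96% of the 9652 genes with a mean of at least 5 CPM, whose median SD was 0.38. It was 2.64 for Npas2, where low counts add to the spread, and 1.46 for Per3, 1.41 for Arntl and 0.98 for Cry1. Per2, Tef and Per1 followed with SDs of 0.86, 0.82 and 0.81, each larger than that of at least 96.9% of genes. Clock at 0.54 and Cry2 at 0.48 were closer to the median gene, with smaller SDs for 81.2% and 71.8% of genes. In CON-GFP the SD of Arntl was 0.53, against 1.57 in FPC-GFP and 1.80 in FPC-LIPA, and that of Dbp was 1.21, against 2.47 and 1.88. These differences in spread between groups were not tested. The median gene had an SD of 0.26, 0.22 and 0.51 in CON-GFP, FPC-GFP and FPC-LIPA.

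**Figure D2:**
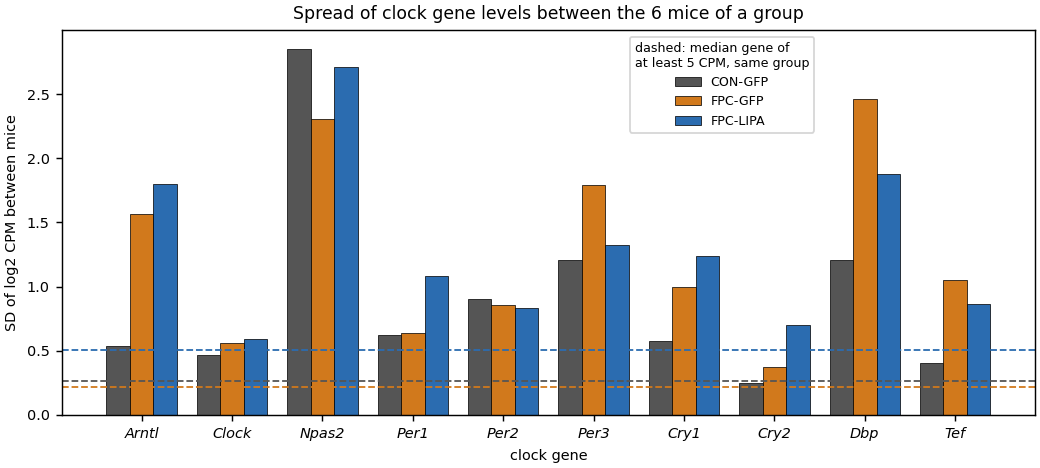
SD of log2 CPM between the 6 mice of each group for each clock gene (bars) and for the median gene of at least 5 CPM in the same group (dashed lines). Dbp, Arntl and Per3 stand far above the dashed lines in the FPC-fed groups, and Cry2 stays near them.

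From liver to liver, Npas2, Clock and Cry1 moved with Arntl, and Dbp, Per3, Tef and Per2 moved against it. After the mean of each group was removed, Arntl and Dbp had a Pearson r of -0.89 (p = 9e-05, adjusted p = 0.00027) and a Spearman rho of -0.91 (p = 7e-05, adjusted p = 0.00021) over the 18 libraries, in a 2-sided permutation test with 100000 resamples within groups and adjustment over the 9 pairs with Arntl. Npas2, which shares the RORE arm with Arntl, followed it with r = 0.83 (p = 3e-05, adjusted p = 0.00027) and rho = 0.78 (p = 3e-05, adjusted p = 0.000135) in the same permutation test. Per3 opposed Arntl with r = -0.83 (p = 9e-05, adjusted p = 0.00027) and rho = -0.86 (p = 3e-05, adjusted p = 0.000135, permutation test). Tef likewise had r = -0.79 (p = 0.00172, adjusted p = 0.00387) and rho = -0.85 (p = 0.00056, adjusted p = 0.00101, permutation test). Clock and Cry1 moved with Arntl: Clock had r = 0.76 (p = 0.00241, adjusted p = 0.00434) and rho = 0.83 (p = 0.00023, adjusted p = 0.000517) by permutation. Cry1 had r = 0.75 (p = 0.0047, adjusted p = 0.00705) and rho = 0.72 (p = 0.00676, adjusted p = 0.0101) by permutation. Per2 had r = -0.54 (p = 0.0261, adjusted p = 0.0335) and rho = -0.59 (p = 0.012, adjusted p = 0.0155) by permutation, and its r did not pass with library size alone (-0.50, adjusted p = 0.0615) or in the 14 libraries numbered 55 to 68 on the sample sheet (-0.46, adjusted p = 0.172). Per1 and Cry2 did not pass: Per1 had r = -0.38 (permutation p = 0.2, adjusted p = 0.225) and rho = -0.42 (permutation p = 0.119, adjusted p = 0.134). For Cry2, r was -0.16 (permutation p = 0.63, adjusted p = 0.63) and rho was -0.24 (permutation p = 0.428, adjusted p = 0.428). In all, 7 of 9 pairs passed at an adjusted p under 0.05. Other genes were not put through this test, so the share of all genes that would pass with Arntl is not known. This limit also holds for the counts of pairs given below.

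With the group means removed and the groups pooled, the largest gap between neighbouring livers in Arntl was 0.52 of a range of 4.27 on the log2 scale. Within each FPC-fed group, however, 3 livers lay below the gap from 3.19 to 8.18 CPM and the others above it. Log2 CPM of Arntl stepped from 1.70 in FPC-GFP 16 to 3.09 in FPC-GFP 19, and from 1.54 in FPC-LIPA 31 to 3.63 in FPC-LIPA 37. How far r rests on the contrast of these low and high livers was not tested. Without FPC-LIPA 34 and 36, the libraries farthest from the median of Arntl, r was -0.89 for Dbp, 0.83 for Npas2, -0.86 for Per3, -0.86 for Tef, 0.74 for Clock, 0.64 for Cry1 and -0.62 for Per2 (n = 16), and Per1 also passed at r = -0.56 (adjusted p = 0.0474, permutation test). Within CON-GFP alone, whose livers all lay above the gap in Arntl, r was -0.83 for Dbp (exact permutation p = 0.025, adjusted p = 0.0563), -0.91 for Per3 (exact p = 0.00972, adjusted p = 0.0292), -0.96 for Tef (exact p = 0.00694, adjusted p = 0.0292) and -0.93 for Per2 (exact p = 0.00833, adjusted p = 0.0292). Within FPC-GFP, r was -0.91 for Dbp (exact permutation p = 0.0153, adjusted p = 0.035) and 0.99 for Npas2 (exact p = 0.00278, adjusted p = 0.025). Within FPC-LIPA it was -0.95 for Dbp (exact permutation p = 0.0347, adjusted p = 0.104) and 0.92 for Npas2 (exact p = 0.0208, adjusted p = 0.1). Of the 9 pairs, 3 passed within CON-GFP, 6 within FPC-GFP and 0 within FPC-LIPA, where Npas2, Cry1 and Dbp had an unadjusted exact permutation p under 0.05. These counts are for r. By rho, 1 pair passed within CON-GFP (Tef, adjusted p = 0.025, exact permutation test), where Per2 and Per3 stood at 0.05, and 0 passed within FPC-GFP, where the lowest adjusted p was 0.075, or within FPC-LIPA, where it was 0.15 (exact permutation tests). Sample sheet numbers stand in the library names. In the 14 libraries numbered 55 to 68, r was -0.89 for Dbp and 0.89 for Npas2, and 6 of 9 pairs passed, while the other 4 libraries, from 3 groups, were too few to test. Without FPC-LIPA 36, 37 and 39, r was -0.91 for Dbp, 0.80 for Npas2 and -0.86 for Per3 (n = 15), and 7 pairs passed. Among the pairs without Arntl, given as a description with all genes read from the same 18 libraries, Per3 and Dbp had r = 0.93, Per3 and Tef 0.90, Dbp and Tef 0.85, and Dbp and Cry1 -0.83.

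**Figure D3:**
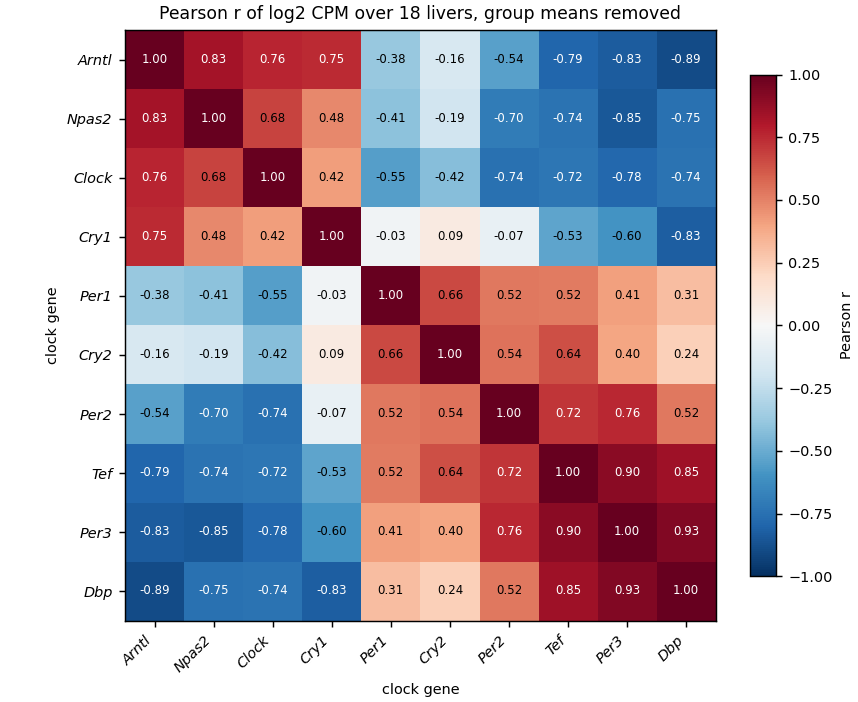
Pearson r between each pair of clock genes over the 18 livers, from log2 CPM with group means removed. Arntl, Npas2, Clock and Cry1 form a block of positive values, Dbp, Per3, Tef and Per2 form another, and r between the blocks runs from -0.07 to -0.89.

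The balance of Dbp to Arntl in single livers shows how far apart mice of 1 group were. As log2 Dbp CPM minus log2 Arntl CPM it ran from -3.22 to 1.66 in CON-GFP with a median of 0.10, from -3.37 to 5.75 in FPC-GFP with a median of 3.57, and from -2.57 to 5.75 in FPC-LIPA with a median of 1.69. FPC-GFP 11 held 19.0 CPM of Arntl and 1.77 CPM of Dbp, whereas FPC-GFP 13, on the same diet and vector, held 1.55 CPM of Arntl and 86.8 CPM of Dbp. FPC-LIPA 34 and 36 were also far apart, at 20.9 and 1.02 CPM of Arntl and 3.46 and 58.4 CPM of Dbp. CON-GFP 1, at 23.2 CPM of Arntl and 2.43 CPM of Dbp, was the control liver nearest to FPC-GFP 11. The high-Arntl and the high-Dbp ends thus both held FPC-GFP and FPC-LIPA livers.

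**Figure D4:**
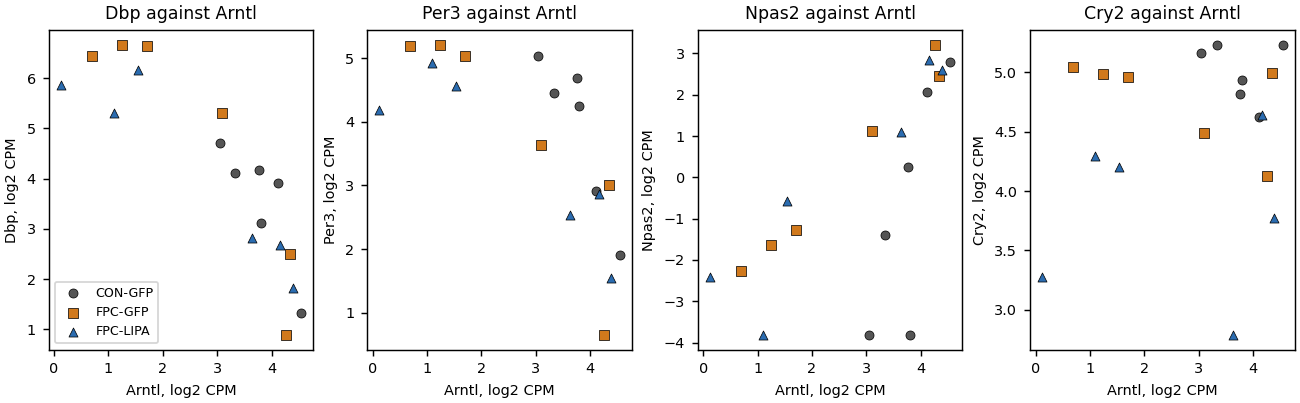
Levels of Dbp, Per3, Npas2 and Cry2 against Arntl in the 18 livers, all as log2 CPM, with 1 point per mouse and the groups by colour and shape. Dbp and Per3 fall and Npas2 rises with Arntl in each group, while Cry2 shows no such trend and is lowest in FPC-LIPA.

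The first comparison asked what the FPC diet changed in livers that carried GFP. No clock gene passed between FPC-GFP and CON-GFP. At an adjusted p under 0.05 in edgeR's quasi-likelihood test, 0 of 10 passed, against a background of 23.8% of the 14307 genes tested. With the 2-fold minimum as well, 7.2% of genes passed, 4.76% higher and 2.44% lower. DESeq2 also called 0, and 4 members (Clock, Per1, Cry1 and Dbp) had an unadjusted p under 0.05 in edgeR. No member had groups that did not overlap, against 10.4% of genes. Fold changes are given on the log2 scale with their SE. Dbp had the largest difference, 1.94 (SE 0.74, adjusted p = 0.0689), at 55.7 ± 46.1 CPM in FPC-GFP against 14.5 ± 8.15 CPM in CON-GFP (SD, n = 6 each, edgeR). Cry1 had a difference of -0.89 (SE 0.40, adjusted p = 0.116, edgeR), Per1 of -0.68 (SE 0.29, adjusted p = 0.0962, edgeR) and Clock of -0.59 (SE 0.25, adjusted p = 0.101, edgeR). For Arntl it was -0.64 (SE 0.52, adjusted p = 0.383, edgeR) and for Npas2 0.48 (SE 1.03, adjusted p = 0.757, edgeR). Cry2, Per2, Per3 and Tef lay between -0.21 and 0.22, with adjusted p from 0.359 to 0.938 in edgeR. The median difference of the 10 members was -0.08, beside 0.01 for all genes, and the median absolute difference was 0.54, beside 0.29. The median SE was 0.40 for the members and 0.17 for all genes. Single livers decided how many members passed: without FPC-GFP 12, Cry1 (adjusted p = 0.0268) and Dbp passed in edgeR, without FPC-GFP 11 Dbp passed (its lowest adjusted p was 0.0189), and without CON-GFP 7 Per1 passed (adjusted p = 0.0281).

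The second comparison asked what hepatic LIPA changed on the FPC diet. Cry2, a repressor of the loop, was the only clock gene that passed in edgeR, and it fell by 0.80 on the log2 scale (SE 0.27, adjusted p = 0.0482), to 15.5 ± 6.74 CPM in FPC-LIPA from 27.9 ± 6.40 CPM in FPC-GFP (SD, n = 6 each). This is 1 of 10 members against a background of 21.2% of the 14620 genes tested, of which 6.87% were lower. With the 2-fold minimum, 0 members passed in edgeR, against 11.4% of genes, and DESeq2 without it called Cry2 alone. The groups of Cry2 overlapped, as did those of the other members, against 7.66% of genes with groups that did not. The call on Cry2 was near the threshold. Its adjusted p ran from 0.0115 to 0.253 over 23 alternatives in edgeR or DESeq2, of which 5 passed, among them the DESeq2 Wald test. In the edgeR fits that left out a liver, it was under 0.05 without FPC-LIPA 33 and not without any other of the 12 livers. Without FPC-LIPA 36, 37 and 39, the libraries with a high share of ribosomal protein genes, the difference was -0.54 (adjusted p = 0.253, edgeR). Dbp and Tef each had a difference of -0.80, with SEs of 0.86 and 0.44 (adjusted p = 0.505 and 0.183, edgeR). The differences of Per3, Per2 and Cry1 were -0.49, -0.41 and -0.19, with adjusted p of at least 0.47 in edgeR. Arntl, Clock, Npas2 and Per1 lay between -0.10 and 0.11 (adjusted p from 0.868 to 0.954, edgeR), and each of these took the opposite sign under some alternative. The median difference of the members was -0.30, beside 0.04 for all genes, and the median SE 0.48, beside 0.27.

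The third comparison set FPC-LIPA against CON-GFP and shares its libraries with the other two. These groups differ in both diet and vector gene, so this comparison alone cannot tell an effect of the diet from one of LIPA. Cry2 again was the only member that passed, and it fell by 1.03 on the log2 scale (SE 0.27, adjusted p = 0.0131, edgeR), from 32.4 ± 5.42 to 15.5 ± 6.74 CPM (SD, n = 6 each). That is 1 of 10 members, against 22.9% of the 14433 genes tested, of which 8.2% were lower. Cry2 also passed the 2-fold minimum, which 15.1% of genes passed in either direction and 3.25% passed as lower. Cry2 passed without any single liver (adjusted p from 0.00294 to 0.0306, edgeR) and without FPC-LIPA 36, 37 and 39 (-0.75, adjusted p = 0.0259, edgeR). It did not pass with library size as the only scaling (adjusted p = 0.0554, edgeR) or within the sample sheet numbers from 55 to 68 (-0.84, adjusted p = 0.0681, edgeR). Cry1 had a difference of -1.10 (SE 0.44, adjusted p = 0.0843, edgeR), which DESeq2 called at an adjusted p of 0.0446. Tef had a difference of -0.75 (SE 0.32, adjusted p = 0.102, edgeR) and passed when FPC-LIPA 31 was left out (adjusted p = 0.049). Dbp had a difference of 1.11 (SE 0.68, adjusted p = 0.237, edgeR). Clock, Per1, Arntl, Per2, Per3 and Npas2 had differences of -0.59, -0.60, -0.55, -0.38, -0.30 and 0.39, with adjusted p from 0.134 to 0.824 in edgeR. The groups of each member overlapped, against 11.1% of genes whose groups did not. The median difference of the members was -0.57, beside 0.04 for all genes.

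**Figure D5:**
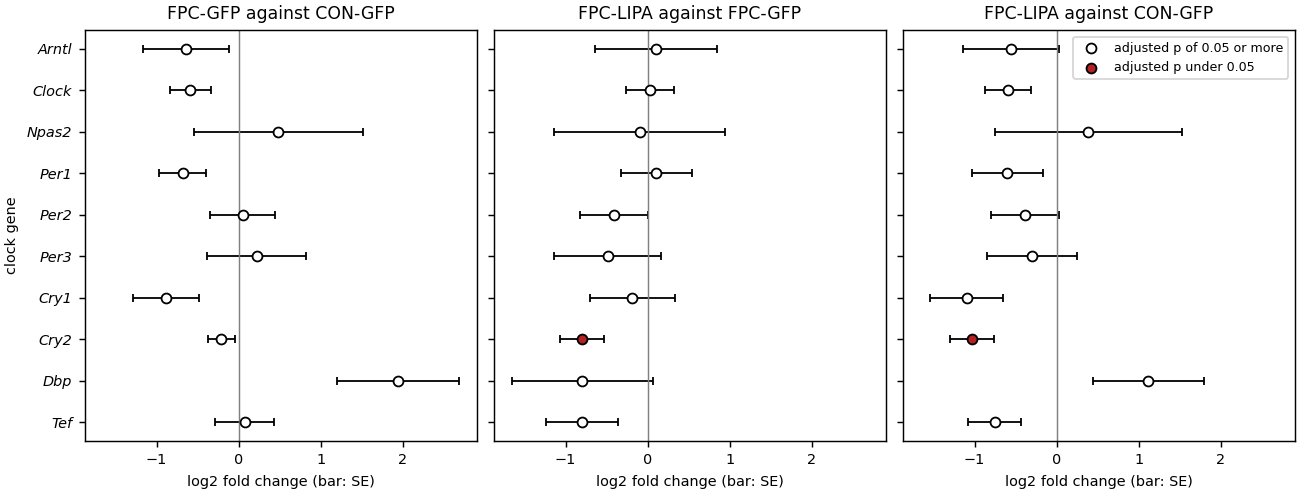
Log2 fold change of each clock gene in the 3 comparisons of 6 against 6 livers, with bars of 1 SE; red points passed at an adjusted p under 0.05 over all genes (edgeR). Only Cry2 is red, in both comparisons of FPC-LIPA, and the widest bars belong to Npas2 and Dbp.

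Among the nuclear receptor genes that act on Arntl, Nr1d1 rose with the diet in edgeR. Nr1d1, which encodes REV-ERBα, had a lowest, median and highest level of 3.57, 8.01 and 36.5 CPM in CON-GFP, 8.84, 45.3 and 93.2 in FPC-GFP, and 9.83, 22.5 and 63.6 CPM in FPC-LIPA. It rose by 1.85 on the log2 scale with the FPC diet (SE 0.59, adjusted p = 0.0335, edgeR), although its groups overlapped. This call held under 11 of 22 alternatives, and in 4 of 12 fits that left out a liver, those without CON-GFP 7 or FPC-GFP 11, 12 or 13, and the adjusted p ran up to 0.0855 in the others. Nr1d2 (REV-ERBβ) had a diet difference of 0.00 (adjusted p = 0.998, edgeR) and Rora of -0.57 (adjusted p = 0.0532, edgeR). Rorb had 0 counts in the 18 libraries, which allows up to 3 counts in each. In FPC-LIPA against FPC-GFP the differences were -0.73 for Nr1d1, 0.56 for Nr1d2 and 0.06 for Rora, with adjusted p of 0.322, 0.446 and 0.871 in edgeR.

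Of the other D-box factors, Hlf, the third relative of Dbp and Tef, was low in FPC-LIPA. Its lowest, median and highest levels were 40.8, 54.0 and 67.05 CPM in control livers, 24.8, 41.7 and 50.7 CPM in FPC-GFP livers, and 16.9, 24.6 and 28.2 CPM in FPC-LIPA. Hlf did not overlap between FPC-LIPA and CON-GFP, where it fell by 1.15 (SE 0.17, adjusted p = 0.000435, edgeR) and passed under 23 of 23 alternatives. Against FPC-GFP it fell by 0.69 (SE 0.19, adjusted p = 0.0265, edgeR), a call that 16 of 23 alternatives kept. It was lost without FPC-GFP 12, 13, 16 or 20 (adjusted p up to 0.0605) and without FPC-LIPA 36, 37 and 39 together (-0.69, adjusted p = 0.126). The diet difference of Hlf was -0.44 (adjusted p = 0.076, edgeR). Nfil3, the opponent of these factors, and the repressor genes Bhlhe40, Bhlhe41 and Ciart passed in 0 of 3 comparisons, and the diet difference was -0.22 for Nfil3, -0.02 for Bhlhe40, 1.48 for Bhlhe41 and -1.12 for Ciart (adjusted p from 0.074 to 0.961, edgeR). Across livers, as a description with group means removed, Nfil3 had r = 0.74 with Arntl and -0.82 with Dbp. Nr1d2 had r = -0.78 with Arntl and 0.82 with Dbp. The r with Arntl was weaker for Ciart (-0.66), Bhlhe41 (-0.65), Hlf (-0.61), Nr1d1 (-0.47), Rora (0.18) and Bhlhe40 (-0.06). With Dbp, r was 0.55, 0.73, 0.60, 0.71, -0.31 and 0.20 for these genes in the same order.

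A list of 14 other genes linked to the clock held mostly genes that modify or degrade clock proteins. Of these 14, 1 passed as higher and 2 as lower with the diet, against 12.9% and 10.9% of all genes. In FPC-LIPA against FPC-GFP, 2 passed as higher and 1 as lower, against 14.4% and 6.87%. These counts are near those shares. In FPC-LIPA against CON-GFP 0 passed, against 22.9% of genes. With the diet, Csnk1e, a kinase of PER proteins, rose by 0.62 (adjusted p = 0.0239, edgeR), while the kinase gene Csnk1a1 fell by 0.44 (adjusted p = 0.0471, edgeR). Csnk1e lost its call without CON-GFP 1 or FPC-GFP 19 (adjusted p up to 0.0626), and Csnk1a1 kept its call in 4 of 12 fits that left out a liver. In FPC-LIPA against FPC-GFP, Tipin rose by 0.95 (adjusted p = 0.0411, edgeR), and Gsk3b, a clock kinase, fell by 0.53 (adjusted p = 0.0377, edgeR). Without FPC-LIPA 36, 37 and 39 the differences were 0.19 for Tipin and -0.30 for Gsk3b, with adjusted p of 0.698 and 0.248 in edgeR. Tipin and Gsk3b each kept their calls in 3 of 12 fits that left out a liver. In FPC-LIPA against CON-GFP the differences were 0.58 for Csnk1e, -0.04 for Csnk1a1, 0.63 for Tipin and -0.41 for Gsk3b, with adjusted p from 0.0977 to 0.927 in edgeR. The most abundant gene of this list was Csnk1a1, at 93.0 ± 24.2 CPM in control and 68.5 ± 5.36 CPM in FPC-GFP livers (SD, n = 6).

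Of 11 output genes of the liver clock, 1 passed with the diet, against 23.8% of all genes, and 3 passed in FPC-LIPA against CON-GFP, against 22.9%. Both counts are close to or below those shares. Noct, a phosphatase gene with a strong daily rhythm, fell by 1.13 with the diet (adjusted p = 0.0359, edgeR) and by 1.27 in FPC-LIPA against CON-GFP (adjusted p = 0.0243, edgeR). Its diet call held in 4 of 12 fits that left out a liver (adjusted p up to 0.0785), and the other was lost without CON-GFP 3 or FPC-LIPA 36 (adjusted p up to 0.0555). Elovl3, a fatty acid elongase gene, fell by 1.64 in FPC-LIPA against CON-GFP (adjusted p = 0.0168, edgeR), and Cyp7a1, the rate-limiting enzyme of bile acid synthesis, rose by 1.50 (adjusted p = 0.045, edgeR). Cyp7a1 passed in 3 of 12 fits that left out a liver, with adjusted p up to 0.0973. Without FPC-LIPA 36, 37 and 39, Elovl3 had a difference of -1.28 (adjusted p = 0.114, edgeR) and Cyp7a1 of 1.27 (adjusted p = 0.155, edgeR). In FPC-LIPA against FPC-GFP, 0 of 11 passed in edgeR, against 21.2% of all genes. Alas1, the first enzyme of heme synthesis, was the most abundant on the list and had a diet difference of 0.12 (adjusted p = 0.884, edgeR).

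Of 6 genes induced by glucocorticoids, hormones that also follow a daily rhythm and act on Per1, 3 passed as lower with the FPC diet in edgeR, against 10.9% of all genes. The other 3 did not pass, at -0.95 for Fkbp5, -1.50 for Zbtb16 and 0.09 for Sgk1 (adjusted p = 0.157, 0.0701 and 0.738, edgeR). Tsc22d3 (GILZ) had a lowest, median and highest level of 195, 208 and 239 CPM in CON-GFP, 36.9, 50.1 and 99.8 in FPC-GFP and 34.4, 63.2 and 103 CPM in FPC-LIPA. Every FPC-fed liver was below every control liver in Tsc22d3, which fell by 1.88 in FPC-GFP (SE 0.22, adjusted p = 0.000123, edgeR) and by 1.63 in FPC-LIPA (SE 0.26, adjusted p = 0.000671, edgeR), and both calls held under every alternative tried, 22 and 23 in number. Dusp1 fell by 0.96 with the diet (adjusted p = 0.00423, edgeR), and Tat, an amino acid-degrading enzyme and the most abundant gene of the list, fell by 1.48 (adjusted p = 0.0076, edgeR). In FPC-LIPA against CON-GFP, Tat fell by 2.11 and Fkbp5 fell by 1.98, while Sgk1 rose by 0.92 (adjusted p = 0.0057, 0.0168 and 0.0145, edgeR). Sgk1 was also the only gene of the list that passed against FPC-GFP, where it rose by 0.86 (adjusted p = 0.0378, edgeR), a call kept in 5 of 12 fits that left out a liver and lost without FPC-LIPA 36, 37 and 39 together (0.65, adjusted p = 0.184).

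Outside these lists, genes whose log2 CPM followed Arntl closely over the 18 libraries, among those with a mean of at least 5 CPM, were Slc30a10 (r = 0.94), Clpx (0.93), Ypel2 (0.91) and Pnrc1 (0.89). With group means removed the r of these genes was 0.95, 0.93, 0.89 and 0.86. Closest to Dbp were Dclre1c (r = 0.80), Exoc7 (0.79), Cyp2a5 (0.74), Zfp467 (0.73) and Slc5a6 (0.73). No gene outside the lists came as close to Dbp as Per3 did, at r = 0.88 on the same scale. These values describe likeness over libraries that share their depth and scaling, and carry no p.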

How the data were processed

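Liver RNA of 18 mice was sequenced by the authors on a NovaSeq, 1 library per mouse, with TruSeq RNA or stranded mRNA kits (which library had which kit is not given in the sources used here). Reads were trimmed, mapped to mm10 (GRCm38) with HISAT2 2.1.0 and counted per gene with featureCounts of Subread. The values are raw counts per gene as deposited by the authors. The strand setting is not given, so reads from overlapping or antisense genes cannot be told apart. The table also had 5 columns that match no sample of this series' labels, and they were not used. Depth was 16632146 to 37739301 counts per library, and replicate libraries of a group differed by more than sampling noise (chi-square per degree of freedom from 15.4 to 591 over 45 pairs).

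Counts were tested with edgeR 4.0.16 in R 4.3.3 (filterByExpr, TMM, quasi-likelihood F test), each comparison with its 12 libraries and Benjamini-Hochberg adjustment over all genes tested. A gene passed at an adjusted p under 0.05. The study's own minimum of a 2-fold change is given as a separate count. SEs were computed as the absolute log2 fold change over the square root of F. Means and SDs are of TMM-scaled CPM over the 18 libraries, and log2 CPM used a prior count of 2. Gene positions and exon lengths came from the GRCm38 annotation, with lengths for 55227 genes. Correlations used numpy 2.4.6 and scipy 1.17.1, and figures matplotlib 3.10.9. The test was tried on simulated data before use.

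The 10 clock genes and the lists were chosen with earlier results of these data known. All members are named, with nuclear receptor, D-box and repressor genes, the genes of the modifier, output and glucocorticoid lists that passed in any comparison, the most abundant of each of these lists, and the 5 genes most like Arntl and the 5 most like Dbp. Some genes that this rule names are not reported here. Cell type lists are given by their sums. Alternatives were DESeq2 1.42.0 (its size factors, its Wald test), upper-quartile factors, library size alone, no filter, at least 1 CPM in 6 libraries, a robust fit, all 18 libraries in 1 fit, sample sheet numbers 55 to 68 (numbers in the library names, whose meaning is not stated), removal of a gene length trend, stricter thresholds, and each library left out.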

Additional observations from a re-analysis of the deposited data

How the results depend on the processing

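The count of clock genes that passed with the diet (0) became 1 with library size alone and ran from 0 to 2 when each liver was left out. In FPC-LIPA against FPC-GFP the count (1) became 0 with upper-quartile factors, library size alone, no filter, at least 1 CPM in 6 libraries, sample sheet numbers 55 to 68, the length trend removed, the 2-fold minimum, an adjusted p under 0.01, and without FPC-LIPA 36, 37 and 39, and it ran from 0 to 1 when each liver was left out. In FPC-LIPA against CON-GFP the count (1) became 2 with the DESeq2 Wald test and 0 with library size alone, sample sheet numbers 55 to 68 or an adjusted p under 0.01, and it ran from 1 to 2 when each liver was left out. The count of pairs correlated with Arntl (7) became 3 within CON-GFP and 0 within FPC-LIPA. The cause of these changes was not tested. Library size alone moved the median of all genes by 0.20, -0.13 and 0.09 on the log2 scale in the 3 comparisons.

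None of the differences that changed sign had passed. With the diet these were Per2 (-0.36), Per3 (-0.27) and Tef (-0.29) within sample sheet numbers 55 to 68 and Per2 (-0.0296) with the length trend removed. With LIPA on the FPC diet they were Clock (-0.11) and Per1 (-0.0251) with library size alone, Clock (-0.0327) with no filter, Arntl (-0.21) and Clock (-0.16) within sample sheet numbers 55 to 68, and Npas2 (0.66) and Per1 (-0.0190) without FPC-LIPA 36, 37 and 39. The r of Arntl with Cry2 was 0.0581 within FPC-LIPA. When each liver was left out, the diet difference ran from -0.16 to 0.23 for Per2, -0.0251 to 0.47 for Per3, -0.19 to 0.28 for Tef and -0.32 to 1.32 for Npas2. That of LIPA on the FPC diet ran from -0.27 to 0.49 for Arntl, -0.15 to 0.15 for Clock, -0.70 to 0.72 for Npas2, -0.37 to 0.27 for Per1 and -0.38 to 0.19 for Cry1, and that of FPC-LIPA against CON-GFP from -0.23 to 1.23 for Npas2. Of the other values for single genes and pairs, 1113 kept their direction and side of the threshold, 201 lost and 9 gained a call. Leaving out FPC-LIPA 36, 37 and 39, and restricting the correlations to sample sheet numbers 55 to 68, were chosen after seeing the data. No paired analysis was possible because the groups share no mouse numbers. With 6 mice per group and a wide spread between mice, differences well above a member's SE could go undetected. Dbp, for example, did not pass with the diet at a difference of 1.94 (SE 0.74). The part of the time of day of collection in any result was not tested.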
